A study of Mus musculus with 6 samples.

Results

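The genes that build or switch on central nervous system myelin were followed in open chromatin maps of adult neural stem cell cultures. The 6 genes, out of 21938 protein-coding genes of GENCODE M21, are *Mbp*, *Mog*, *Mag*, *Myrf*, *Cnp* and *Mobp*. Every peak overlapping one of these gene bodies or the 20 kb on either side was taken, and peaks that overlapped by at least 1 bp in any library were joined into regions. This gave 48 regions of the 120143 in the whole data set.

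Myelin is the lipid-rich sheath that oligodendrocytes wrap around axons. MBP holds the cytoplasmic faces of the membrane together, MOBP is another small basic protein of compact myelin, CNP is an enzyme of the non-compacted cytoplasmic channels, MAG sits next to the axon, and MOG lies on the outermost surface of the sheath. *Myrf* encodes the membrane-bound transcription factor that oligodendrocytes need to turn on such genes as they leave the progenitor stage.

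The assay was ATAC-seq, which uses a transposase to insert sequencing tags into exposed DNA. The cultures were grown from the subependymal zone of the brain of mice aged 10 weeks. All of them lacked *Srr2*, a *Sox2* enhancer removed with CRISPR-Cas9 (Srr2del/del). The 3 PROLIF libraries (replicates 1, 2 and 4) came from proliferating cells after 2 days in vitro with fibroblast growth factor. The 3 DIFF libraries (replicates 1, 2 and 4) came from cells kept in the same way for 2 days. These cells then had 1 day without mitogens, in medium with fetal bovine serum. The design text of the series gives 3 days for the proliferating neurospheres, whereas the sample labels give 2. The deletion is present in every cell, more than one founder line was made, and the line behind each culture is not given in the sources used here. Wild-type cultures were not analysed here, so all comparisons are between states within the mutant.

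The 6 lists held 60006 to 88039 peaks covering 26.2 to 36.3 Mb, of which 27 to 39 peaks per library lay in the 6 windows. PROLIF replicate 4 had the shortest list and DIFF replicate 4 the longest. Peak names carry an input number, which was low (227 to 297) for PROLIF replicates 1 and 4 and DIFF replicate 1 and high (606 to 614) for the other libraries. What these numbers stand for is not given in the sources used here, and differences between states were also computed within each range. Read totals are unknown, so no counting interval is given. A region without a peak is one that did not pass the caller, which is not the same as closed chromatin.

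Most regions around these genes were seen in both states. Of the 48 regions, 41 had a peak in at least 1 PROLIF library and 41 in at least 1 DIFF library. Over all 120143 regions these counts were 91932 and 97640, so this is common in the data set. In all, 21 (43.8%) had a peak in all 6 libraries, against 33.4% of all regions, and 12 (25.0%) were found in a single library, against 29.7% of all regions. No region was PROLIF-only, meaning listed by every PROLIF library and by none of DIFF, and the percentage over all regions was 1.78. Exactly 1 region (2.08%) was DIFF-only, the reverse pattern, against 3.47 percent of all regions. Both shares were below those of all regions. Leaving out PROLIF replicate 2 gave 1 PROLIF-only and 2 DIFF-only regions, and leaving out PROLIF replicate 1 gave 2 DIFF-only regions. By same-numbered pairs of libraries, 1 region was gained in PROLIF and 3 in DIFF in at least 2 pairs with the opposite in none.

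The genes differed in how many regions they held. *Mbp* had 17 regions, 7 of them in all libraries, *Myrf* had 10 with 5 in all libraries, *Cnp* had 9 with 5, *Mog* had 5 with 3, *Mobp* had 5 with 1, and *Mag* had 2 with none in all libraries. The 9 regions within 3 kb of a start site of one of the 6 genes included 2 that were found in every library, while 9 of the 15 regions near the start of a neighbouring gene and 10 of the 24 more distant regions were found in every library. The neighbours with such regions included *Zfp57*, *Fen1*, *Tmem258* and *Dnajc7*.

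**Figure D1:**
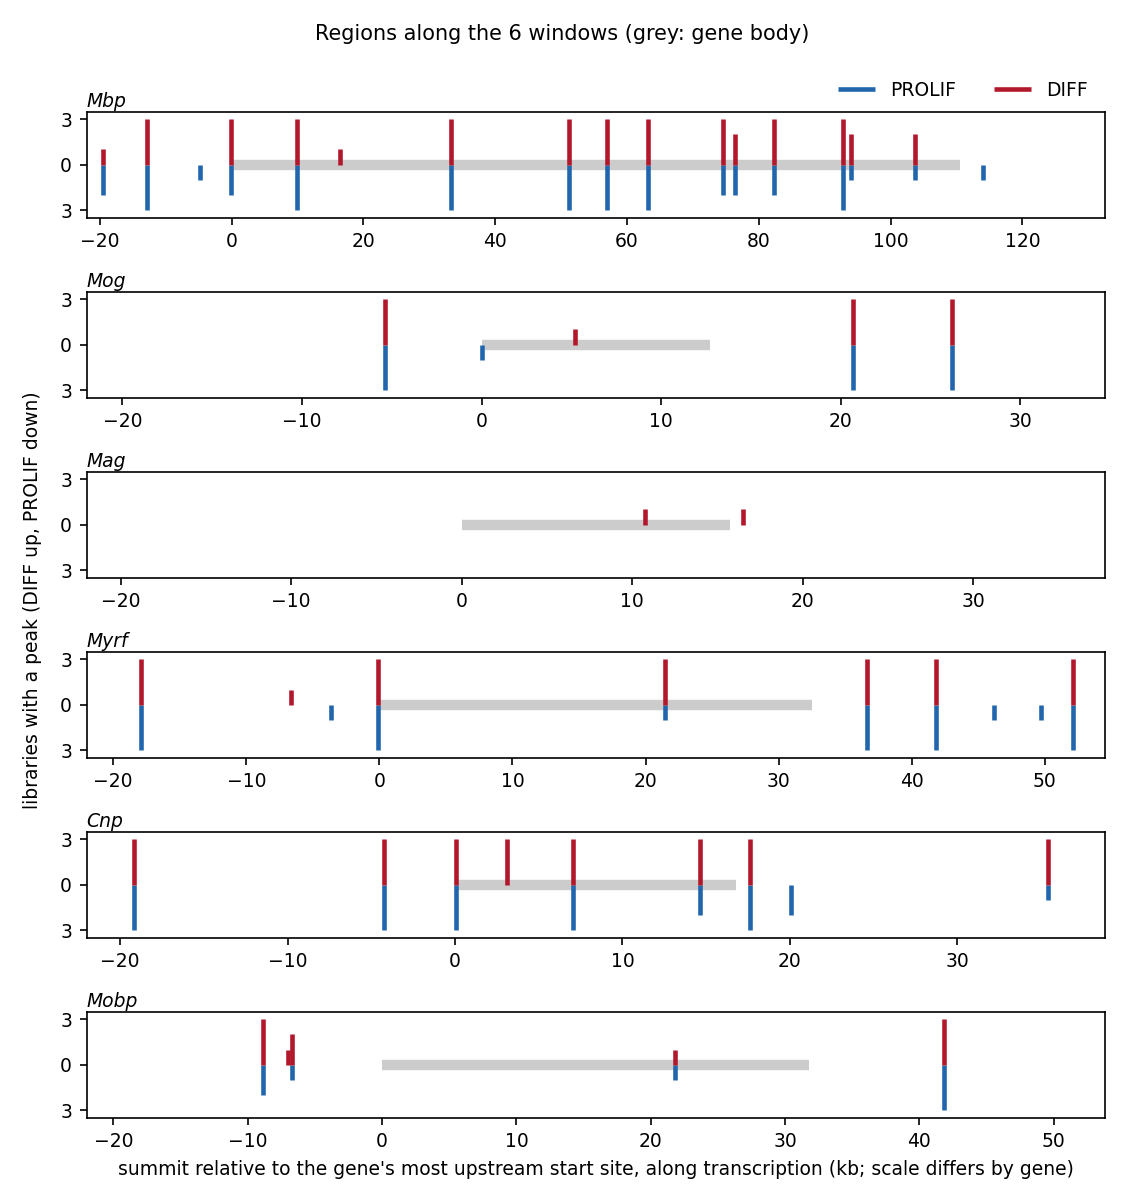
Each vertical line is a region, placed by its summit in kb from the most upstream start site of the gene along the direction of transcription; its height above 0 is the number of DIFF libraries with a peak and its depth below 0 the number of PROLIF libraries, with the gene body in grey. *Mag* holds only 2 short lines, each from 1 DIFF library, and the line at the 5′ part of *Cnp* that rises to 3 with nothing below is the single DIFF-only region.

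Sequences at the summits are shown for the 4 regions to which the results return: the strongest region, the start region of *Myrf*, the DIFF-only region and a region that differed between the states. Each is the plus strand of GRCm38 from the RefSeq assembly, 160 bases centred on the summit of the best-ranked peak, with CpG dinucleotides in capitals. The region upstream of *Mog* was chosen for printing after its values were seen.
*Mog* upstream, chr17:37028710-37028869: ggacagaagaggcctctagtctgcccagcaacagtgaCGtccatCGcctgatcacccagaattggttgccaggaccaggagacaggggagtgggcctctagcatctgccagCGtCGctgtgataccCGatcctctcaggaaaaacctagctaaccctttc
*Myrf* start, chr19:10240756-10240915: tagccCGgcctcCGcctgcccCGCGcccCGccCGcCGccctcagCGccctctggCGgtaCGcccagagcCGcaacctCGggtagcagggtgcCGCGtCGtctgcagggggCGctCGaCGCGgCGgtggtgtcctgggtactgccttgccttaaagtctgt
*Cnp* intron, DIFF-only, chr11:100577944-100578103: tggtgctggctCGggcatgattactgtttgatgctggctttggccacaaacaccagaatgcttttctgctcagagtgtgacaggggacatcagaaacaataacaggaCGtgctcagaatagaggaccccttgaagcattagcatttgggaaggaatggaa
*Cnp* upstream in *Ttc25*, chr11:100555643-100555802: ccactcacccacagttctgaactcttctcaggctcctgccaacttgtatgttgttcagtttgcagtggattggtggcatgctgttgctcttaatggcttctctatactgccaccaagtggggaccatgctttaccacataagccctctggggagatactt

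The *Myrf* start region is the CpG-dense one, with 24 CpG in the 200 bases around its summit. Over all regions the median was 2.00, and over regions within 3 kb of any start site it was 5.00. The *Mog* upstream region had 6, the DIFF-only *Cnp* region 2 and the region in *Ttc25* 0. Among the short motifs searched on both strands in those 200 bases, the *Mog* upstream region held the E-box CAGATG, as CATCTG at bases 102 to 107 of the printed run, and 17.2% of all regions hold one. The region in *Ttc25* held the NFI half-site TTGGCA, as TGCCAA at bases 37 to 42, which 18.3% of all regions hold. The *Myrf* and DIFF-only *Cnp* regions held none of the motifs searched.

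*Mbp* (ENSMUSG00000041607.17, chromosome 18 from 82475146 to 82585637, plus strand) has 12 annotated start sites, since the long golli transcripts begin far upstream of those that encode the classic myelin proteins. At the golli start lay a region from 82474859 to 82475332, with 17 CpG in 200 bases. Its fold enrichment, the caller's ratio of signal to local background, was 5.04 and 5.71 in PROLIF replicates 1 and 2, with no peak in PROLIF replicate 4, and 4.10, 5.05 and 3.71 in DIFF replicates 1, 2 and 4. It was therefore found in both states, in the middle or lower part of the lists (percentiles 33.7 to 51.1 by −log10 p). A pair of regions flanked the inner start sites, 2744 and 2638 bp away from the nearest. The first was listed in 2 libraries of each state, with folds of 3.06 to 3.38. The second, which had its summit in an exon, had folds of 4.28 and 3.55 in PROLIF replicates 1 and 2, no peak in PROLIF replicate 4, and 4.76, 5.29 and 6.99 in DIFF replicates 1, 2 and 4. It was below the golli start region in both PROLIF libraries and above it in all 3 DIFF libraries, a description of values that were not tested.

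Further into the gene, the strongest regions were intronic or lay upstream. A region 12516 bp upstream of the golli start, from 82462093 to 82462630, stood between percentiles 85.6 and 94.2 in every list. Its fold was 13.4, 13.5 and 10.7 in PROLIF replicates 1, 2 and 4 and 13.1, 15.1 and 14.2 in DIFF replicates 1, 2 and 4, so the states overlapped on this unscaled measure. After quantile normalisation they did not (3.52 to 3.81 in PROLIF against 3.82 to 3.83 in DIFF on the log2 scale). The log2 difference DIFF minus PROLIF was 0.20 (SE 0.0966) with an adjusted p of 0.188 by limma. On within-list percentiles the adjusted p of this region was 0.046, the only 1 of 13 alternative settings to pass. The log2 difference was 0.29 within the lower and 0.02 within the higher range of input numbers.

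Inside *Mbp*, 2 intronic regions passed the test, in opposite directions. The first, from 82507987 to 82508869 and 33299 bp into the gene, was higher in DIFF. Its fold was 6.80, 5.33 and 5.45 in PROLIF replicates 1, 2 and 4 and 5.87, 10.8 and 8.50 in DIFF replicates 1, 2 and 4. DIFF replicate 1 lay within the PROLIF range on this unscaled measure, and after scaling all 3 DIFF libraries were above all PROLIF libraries (2.71 to 3.32 against 2.41 to 2.60 on the log2 scale). The log2 difference was 0.55 (SE 0.181) with an adjusted p of 0.0449 by limma over the 40164 regions found in all libraries. The call was lost without PROLIF replicate 1 (adjusted p = 0.086), PROLIF replicate 2 (0.118), PROLIF replicate 4 (0.0655), DIFF replicate 2 (0.211) or DIFF replicate 4 (0.154), with lists of equal length (0.0526), with no scaling (0.259), on percentiles (0.0715) and with the input range as a term (0.0963). The difference was 0.17 within the lower and 0.81 within the higher range of input numbers.

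The second *Mbp* intronic region, from 82531759 to 82532356 and 56896 bp into the gene, was lower in DIFF. Fold values of 14.8, 13.6 and 11.8 in PROLIF replicates 1, 2 and 4 compared with 9.23, 11.8 and 10.7 in DIFF replicates 1, 2 and 4. The highest DIFF and the lowest PROLIF value were both 11.8, while the scaled values did not overlap (3.67 to 3.82 in PROLIF against 3.34 to 3.45 in DIFF on the log2 scale). The region still ranked at percentiles 81.7 to 87.4 in DIFF. The log2 difference was -0.31 (SE 0.0988) with a limma adjusted p of 0.0378, and it was -0.34 within the lower and -0.37 within the higher range of input numbers. With the input range as a term the adjusted p was 0.0287. It was lost without PROLIF replicate 2 (adjusted p = 0.139), PROLIF replicate 4 (0.0576), DIFF replicate 1 (0.117), DIFF replicate 2 (0.0687) or DIFF replicate 4 (0.0894), under median centring (0.0841) and with no scaling (0.257). The other 4 intronic *Mbp* regions found in all libraries did not pass, with log2 differences of -0.27 to -0.01.

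*Mog* (ENSMUSG00000076439.12, chromosome 17 from 37010743 to 37023398, minus strand) had its strongest region upstream of the start. That region, whose sequence is printed above, runs from 37028366 to 37029328 and lies 4968 bp from the *Mog* start, and it was the strongest of the 48 in every library. Its fold was 19.3, 16.8 and 17.1 in PROLIF replicates 1, 2 and 4 and 14.9, 16.7 and 16.6 in DIFF replicates 1, 2 and 4, and its percentile never fell below 98.8. The difference between the states did not pass the test (log2 difference -0.13, SE 0.0733, limma adjusted p = 0.273). At the *Mog* start itself a peak was listed in PROLIF replicate 1 alone, with a fold of 3.53 at percentile 12.9. The pair of regions in the window that were also found in all libraries lay beyond the 3′ end of *Mog*, at and near the start of *Zfp57*, and were 1309 and 439 bp wide against 963 bp for the upstream region.

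*Mag* (ENSMUSG00000036634.15, chromosome 7 from 30899176 to 30914873, minus strand) was the least accessible of the 6. No library had a peak within 3 kb of any of its 7 start sites. Its whole window held 1 peak of 194 bp in an intron in DIFF replicate 4 and 1 of 124 bp beyond its 3′ end in DIFF replicate 1, both at or below percentile 10.7. No PROLIF library had any.

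*Myrf* (ENSMUSG00000036098.15, chromosome 19 from 10208272 to 10240748, minus strand), the transcription factor of the group, had an open start in every library. The region from 10240296 to 10240950 had folds of 8.16, 9.09 and 7.22 in PROLIF replicates 1, 2 and 4 and of 9.25, 11.4 and 10.5 in DIFF replicates 1, 2 and 4. All DIFF values were above all PROLIF values, and its percentiles were 70.4 to 76.8 in PROLIF and 82.3 to 87.4 in DIFF. The log2 difference of 0.40 (SE 0.137) had a limma adjusted p of 0.0572, on the other side of the threshold. The region passed in only 3 of 13 alternative settings. These were the replicate number as a block (limma adjusted p = 0.0403), median centring (0.0447) and leaving out PROLIF replicate 2 (0.0302). In the others it did not pass, with an adjusted p of 0.131 with the input range as a term and 0.363 with no scaling. The log2 difference was 0.46 within the lower and 0.21 within the higher range of input numbers. A region inside the gene, 1695 bp from an internal start site, was listed in 1 PROLIF library (replicate 2, fold 5.84) and in all 3 DIFF libraries (4.56, 6.57 and 3.99). The other 4 regions of the *Myrf* window found in all libraries lay within 3 kb of a start of a neighbour, and the outermost of them reached past the edge of the window.

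*Cnp* (ENSMUSG00000006782.16, chromosome 11 from 100574904 to 100591729, plus strand) had the densest window and the only DIFF-only region. Its start region, from 100574840 to 100575926, had folds of 4.72, 3.95 and 5.08 in PROLIF replicates 1, 2 and 4 and 3.83, 5.42 and 3.80 in DIFF replicates 1, 2 and 4. These overlapped, and the log2 difference was -0.02 (SE 0.198, limma adjusted p = 0.972). The DIFF-only region lay in an intron, from 100577907 to 100578320, 2016 bp from the nearest *Cnp* start. No PROLIF library had a peak there, and DIFF replicates 1, 2 and 4 had folds of 2.91, 5.27 and 4.09 at percentiles 15.9, 51.0 and 52.9. They were below those of the start region in DIFF replicates 1 and 2 and above it in DIFF replicate 4. A region in the opposite pattern, at *Dnajc7*, was listed in 2 PROLIF libraries with folds of 3.53 and 3.38 and in no DIFF library.

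The third region to pass the test lay at the far upstream end of the *Cnp* window, from 100555522 to 100556065, in an intron of *Ttc25*. Its fold was 9.06, 7.11 and 7.54 in PROLIF replicates 1, 2 and 4 and 8.42, 11.1 and 10.9 in DIFF replicates 1, 2 and 4. Only DIFF replicate 1 fell within the PROLIF range, and the scaled values did not overlap (2.84 to 3.09 in PROLIF against 3.22 to 3.46 in DIFF on the log2 scale). The log2 difference was 0.41 (SE 0.134) with a limma adjusted p of 0.047, and it was 0.22 within the lower and 0.57 within the higher range of input numbers. The call was lost without PROLIF replicate 1 (adjusted p = 0.0936), PROLIF replicate 2 (0.126), DIFF replicate 1 (0.0511), DIFF replicate 2 (0.127) or DIFF replicate 4 (0.209), with lists of equal length (0.053), with no scaling (0.367), on percentiles (0.138) and with the input range as a term (0.0765).

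*Mobp* (ENSMUSG00000032517.16, chromosome 9 from 120149707 to 120181484, plus strand) had no peak at its most upstream start. The region nearest to any of its 5 start sites, 1509 bp away, was 97 bp wide and was listed in PROLIF replicate 1 (fold 4.03) and DIFF replicate 4 (fold 2.57). A region 8544 bp upstream was more regular, in 2 PROLIF libraries (5.29 and 4.31) and in all 3 DIFF libraries (4.53, 7.58 and 5.70). The single *Mobp* region found in every library lay downstream of the gene in an intron of *Gm38642*, a predicted gene, with a log2 difference of -0.34 (SE 0.167, limma adjusted p = 0.190).

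**Figure D2:**
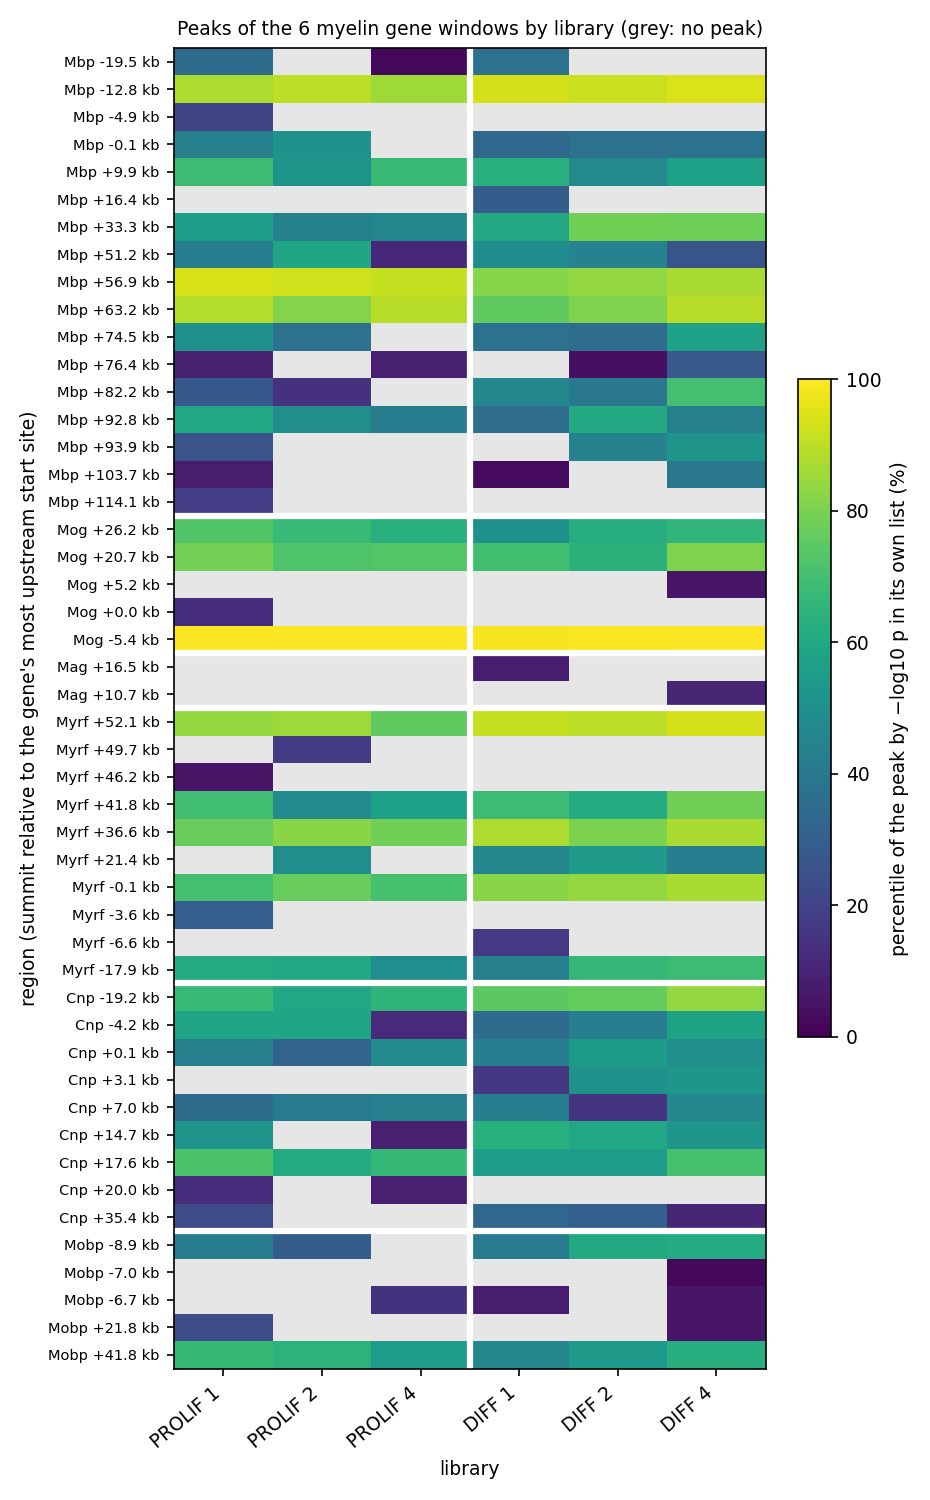
Rows are the 48 regions, labelled by gene and by the distance of the summit from the most upstream start site in kb, and columns are the 6 libraries; colour is the percentile of the peak by −log10 p within its own list, and grey means that no peak was listed. The last *Mog* row, the region upstream of its start, is near the top of the scale in all libraries, while the *Mag* rows are grey except for 1 library each.

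**Figure D3:**
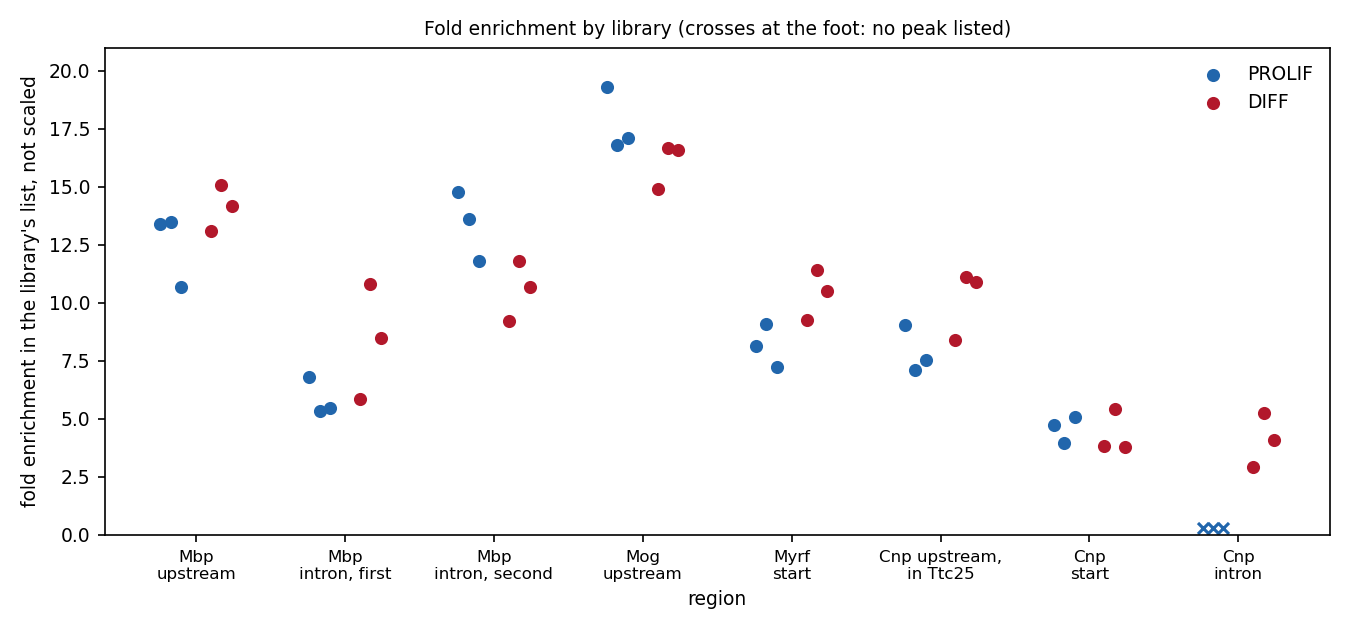
Fold enrichment as listed by the caller, not scaled between libraries, for 8 named regions; each point is a library, and a cross at the foot of the plot means that no peak was listed. DIFF points lie above PROLIF points at the *Myrf* start, overlap them at the *Cnp* start, and are the only ones at the *Cnp* intron.

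Across the data set, 2768 of the 40164 regions tested were higher in DIFF (6.89 percent) and 3558 were lower (8.86 percent). With no scaling between libraries these counts were 1006 and 2621, and on within-list percentiles 2263 and 2032. In the 6 windows 21 regions were tested, 2 were higher and 1 was lower, or 14.3% called against 15.8% overall. At an unadjusted p under 0.05 there were 5 of 21 (23.8%) against 28.6% overall. The median log2 difference was -0.107 over these 21 regions and 0.027 over all regions tested. It was above 0 for 7 of the 21 and for 21840 of the 40164 regions tested, shares that were not tested against each other. The share called in the windows was close to that of all regions. None of the 3 called regions overlapped a start site of one of the 6 genes. Only 2 of the 21 regions tested lay within 3 kb of such a start site, too few to read a pattern from.

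The accessible length of each whole window gave a second measure, as bp covered by peaks per kb. In the order of their means over the 6 libraries, *Cnp* had 51.5, *Myrf* 44.1, *Mog* 43.8, *Mbp* 26.7, *Mobp* 14.4 and *Mag* 0.952 bp per kb. The median over all protein-coding genes was 21.7. *Cnp* stood at percentile 88.8 of these genes, *Myrf* at 83.2, *Mog* at 82.9, *Mbp* at 59.7, *Mobp* at 35.2 and *Mag* at 13.0. Ranges over libraries overlapped between *Cnp* and *Myrf*, between *Myrf* and *Mog* and between *Mbp* and *Mobp*, and did not overlap between *Mog* and *Mbp* or between *Mobp* and *Mag*.

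Between the states, only the *Cnp* window had values that did not overlap. Its open length per kb was 44.3, 48.1 and 38.0 in PROLIF replicates 1, 2 and 4 and 68.2, 52.4 and 58.2 in DIFF replicates 1, 2 and 4, or 43.5 ± 5.12 against 59.6 ± 7.99 (SD, n = 3 each). The two-sided exact permutation p was 0.1, the smallest that 3 against 3 can give. Values did not overlap in 18.7 percent of all genes tested. With each library scaled to the same total open length the log2 difference was 0.36 (SE 0.141, limma adjusted p = 0.185). It was 0.72 within the lower and 0.08 within the higher range of input numbers. With a window of 10 kb it was 0.18 (limma adjusted p = 0.544), and with a window of 50 kb 0.12 (0.475). Of the 9 regions in the *Cnp* window, 5 lay within 3 kb of a start of *Dnajc7*.

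The remaining windows overlapped between the states. *Mbp* had 24.6 ± 6.69 bp per kb in PROLIF and 28.8 ± 2.23 in DIFF. *Mog* had 42.7 ± 3.15 and 45.0 ± 3.70, *Myrf* 45.4 ± 3.91 and 42.9 ± 4.96, and *Mobp* 13.5 ± 4.41 and 15.4 ± 4.00 (SD, n = 3 per state; exact permutation p of 0.5, 0.5, 0.5 and 0.6 for the 4 genes in this order). *Mag* had 0 in the 3 PROLIF libraries and 2.23, 0 and 3.48 in DIFF replicates 1, 2 and 4. None of the 5 windows long enough in open bases to enter the limma fit was called, and log2 differences ran from -0.17 for *Myrf* to 0.36 for *Cnp*. At an unadjusted p under 0.05 the *Cnp* window alone of these 5 passed. The share of all genes passing at that unadjusted level is not given here. Whether *Cnp* stands out from other genes on this measure was therefore not tested. Over all 17161 genes tested, 419 windows were higher in DIFF (2.44 percent) and 266 lower (1.55 percent), and with the replicate number as a block these counts were 758 and 520.

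**Figure D4:**
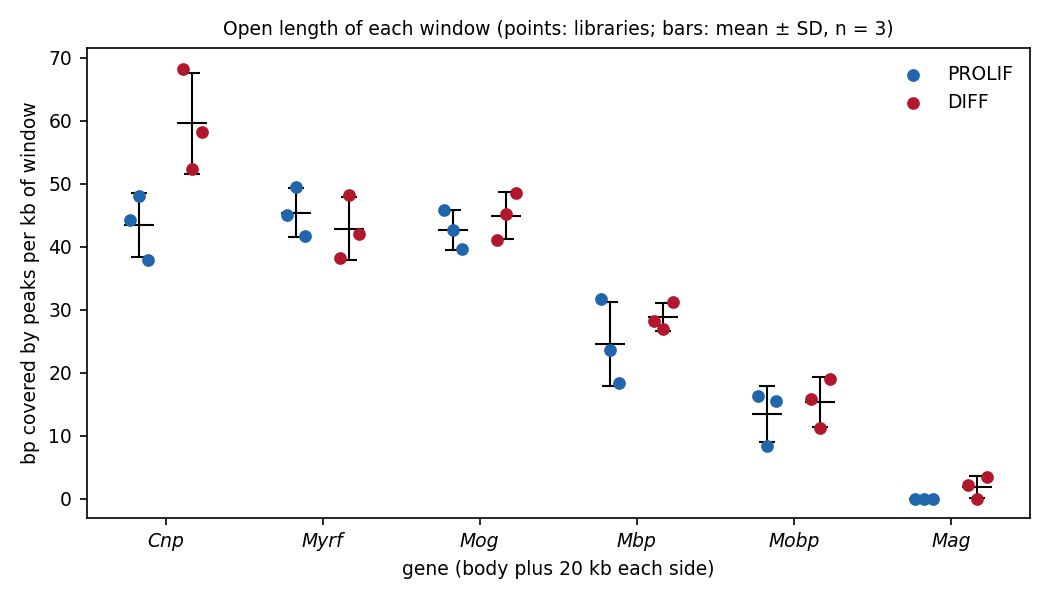
Points are libraries and black bars are the mean ± SD (n = 3) of the bp covered by peaks per kb of each window, by state. The 3 DIFF points of *Cnp*, from 52.4 to 68.2, lie above its PROLIF points, from 38.0 to 48.1, and the states overlap for the other 5 genes.

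The starts of the 6 genes were set beside those of 24 other genes of myelin and oligodendrocytes. A peak within 3 kb of a start site was found in all 6 libraries for 3 of the 6 (*Mbp*, *Myrf* and *Cnp*), in some libraries for *Mog* and *Mobp*, and in none for *Mag*. Of the 24 other genes, 16 had one in all libraries, 5 in some, and *Enpp6*, *Gjb1* and *Klk6* in none. The figure for all protein-coding genes was 14126 of 21938 (64.4%). These shares were not tested against each other. The *Mbp* count joined different regions, and no single one of them was in all 6 libraries. PROLIF replicate 4 entered only through a region 2744 bp from a start, with a fold of 3.38 at percentile 8.80. Within 1 kb of a start, *Mbp* had a peak in 5 libraries.

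Of the windows of those 24 genes 21 were tested, and 1 was higher in DIFF while none was lower. The gene was *Gpr17*, which encodes a receptor of oligodendrocytes that have not yet made myelin. Its open length was 13.0, 8.73 and 5.79 bp per kb in PROLIF replicates 1, 2 and 4 and 13.5, 32.1 and 34.6 in DIFF replicates 1, 2 and 4. DIFF replicate 1 was close to the highest PROLIF library and the other DIFF libraries were far above it. The log2 difference was 1.24 (SE 0.309, limma adjusted p = 0.047). It was not called without PROLIF replicate 1 (adjusted p = 0.0514), PROLIF replicate 2 (0.0997), PROLIF replicate 4 (0.0889), DIFF replicate 2 (0.182) or DIFF replicate 4 (0.187), with open length not scaled (0.208), with no filter on open length (0.222) or with the input range as a term (0.0749), and the difference was 0.54 within the lower and 1.60 within the higher range of input numbers. The median log2 difference of the 21 windows was 0.10, against 0.12 for the 5 windows of the 6 genes and 0.00483 for all genes.

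Of 10 transcription factors of the oligodendrocyte lineage, 8 had a promoter peak in every library, *Zfp488* had one in some and *Sox10* in none. All 10 windows were tested, 1 was lower in DIFF and none was higher. This was *Nkx2-2*, a homeodomain factor of oligodendrocyte progenitors, with 82.2, 67.9 and 60.6 bp per kb in PROLIF replicates 1, 2 and 4 and 47.4, 41.8 and 65.4 in DIFF replicates 1, 2 and 4. DIFF replicate 4 lay within the PROLIF range. The log2 difference was -0.53 (SE 0.120, limma adjusted p = 0.034), -0.55 within the lower and -0.48 within the higher range of input numbers. It was not called without PROLIF replicate 1 (adjusted p = 0.0677), PROLIF replicate 2 (0.0782), PROLIF replicate 4 (0.069), DIFF replicate 1 (0.0915) or DIFF replicate 2 (0.115), with a window of 10 kb (0.0503), with open length not scaled (0.344), with no filter on open length (0.154) or with the input range as a term (0.0572). With the replicate number as a block, the *Tcf7l2* window was also called, as higher in DIFF. Its log2 difference was 0.41, with a limma adjusted p of 0.0332 with the block and 0.0617 without.

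Markers of cell types were looked up with the same promoter measure, which 64.4% of all protein-coding genes met in all 6 libraries. All 9 markers of neural stem and progenitor cells had a promoter peak in every library, among them *Sox2*, *Nes* and *Fabp7*. The same was true of 5 of 6 oligodendrocyte progenitor markers, with *Sox10* in no library, and of 3 of 6 neuronal, 2 of 8 microglial and 2 of 6 endothelial markers. *Cx3cr1*, *Itgam*, *Trem2* and *Ptprc* of microglia, *Cldn5*, *Cdh5* and *Tek* of endothelium and *Dcx* of neurons had a promoter peak in no library. All 3 Schwann cell genes had one in every library, so a promoter peak alone did not mark a cell type here. Of the marker windows, *Cdh5* and *Nkx2-2* were lower in DIFF and none was higher. *Cdh5* (log2 difference -0.61, limma adjusted p = 0.0364) was 1 of 5 endothelial windows tested. *Nkx2-2*, the call described above, was 1 of 6 oligodendrocyte progenitor windows tested. Over all genes tested, 1.55 percent of windows were lower and 2.44 percent higher. With the replicate number as a block, the endothelial *Flt1* window was also called, as lower in DIFF. Its log2 difference was -0.38, with a limma adjusted p of 0.047 with the block and 0.0667 without. In such bulk maps a larger share of cells of a type and more accessibility per cell cannot be told apart.

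The 48 regions had a median width of 424 bp, against 322 bp for all regions, and 50.0% lay within 3 kb of a start site of any gene, against 29.8%. Their median GC content around the summit was 52.0%, against 50.5%. The AP-1 motif TGANTCA was found in 1 of the 48 (2.08%), in a region near *Zfp57*, against 8.20% of all regions. The MYRF motifs CTGGCAC and CTGGTAC were found in 5 (10.4% against 7.60%), of which 2 lay in *Mbp*, 1 in *Mag* and 2 in the *Myrf* window. One of them is the *Mbp* intronic region that was lower in DIFF. The E-box CAGATG was in 12 (25.0% against 17.2%), CAGCTG in 8 (16.7% against 19.6%), the SOX motifs ACAAAG and ACAATG in 14 (29.2% against 29.0%), the NFI half-site in 9 (18.8% against 18.3%) and the TEAD motif ACATTCC in 1 (2.08% against 4.27%). Differences between these shares were not tested.

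Averaged over the 6 windows, *Mag* included, and centred for each gene, the scaled open length profile was -0.14, -0.18 and -0.02 in PROLIF replicates 1, 2 and 4 and 0.25, -0.08 and 0.17 in DIFF replicates 1, 2 and 4 on the log2 scale, and the states overlapped. Among 8643 genes with at least 2000 bp of open chromatin and more than 1 Mb from the 6 genes, those most like this profile were *Nme9* (Pearson r = 0.983), *Cbwd1* (0.983), *Kif7* (0.979), *Wdtc1* (0.963) and *Intu* (0.961). These values describe 6 libraries that all genes share, and the highest of so many are high by construction. *Mag*, too low to enter the limma fit, had 124 open bp in DIFF replicate 1, 194 in DIFF replicate 4 and 0 elsewhere. Such low values swing widely on the log2 scale, so the profile and the genes most like it rest in part on them.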

How the data were processed

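Peak lists of 6 Srr2del/del ATAC-seq libraries were analysed, 3 PROLIF and 3 DIFF, grouped by the state and replicate number in the labels. Per the labels and the study's methods, reads were cleaned with Cutadapt and Trimmomatic and aligned to GRCm38 (mm10) with Bowtie2, and duplicates were flagged with Picard. MACS2 then made 1 list of narrow peaks per library, with no model and a false discovery rate of 0.05, and no replicates were pooled. Versions, read extension, any transposase shift and any blacklist are not given in the sources used here; a different choice would shift peak borders and list lengths. The score column that the authors deposited restates the −log10 q and was not used. Their deposited fold enrichment is the ratio of signal to nearby background within a library. The deposited −log10 p ranked peaks within a list, and the deposited −log10 q served as a stricter filter.

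Regions were made from every listed line. For regions with a peak in all 6 libraries, log2 fold of the strongest peak was quantile normalised and tested with limma (moderated, with a trend), adjusted by Benjamini-Hochberg over all regions. Per gene, bp covered by peaks in the body plus 20 kb each side were scaled to equal totals, and log2(bp + 100) was tested with limma over protein-coding genes with a mean of at least 500 bp, so changes of low windows are understated. *Mag* did not reach that mean. A call is an adjusted p under 0.05. Windows of neighbouring genes overlap. According to the study, the 3 libraries of a state came from separate cultures. The methods were checked on simulated data with independent noise and planted differences larger than those of the called regions. That check does not bear on region calls of the size reported here.

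The study describes paired RNA-seq and ATAC-seq on the same cultures under both conditions. It does not say whether a PROLIF and a DIFF library share a culture, so a shared replicate number is only a possible pair. Deviations of log2 fold from the state mean correlated at 0.0732, 0.122 and 0.105 between same-numbered libraries and at -0.0922 to -0.00337 between others, and values with the replicate number as a block are given where they change a call.

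The members and gene lists were chosen with earlier results of these data known. Regions named are, for each gene, the best-ranked one within 3 kb of a start site and the best-ranked constant one over 3 kb from any start, each region called and each state-only region. Other regions were named after their values were seen. Annotation was GENCODE M21. Sequences are from the RefSeq copy of GRCm38.p6, placed to avoid untranslated regions, and none of chromosome 18 is printed. Fits were made in R 4.3.3 with limma 3.58.1 and the rest in Python 3.11.15 (pysam 0.24.0, scipy 1.17.1, pandas 2.3.3, numpy 2.4.6, matplotlib 3.10.9). Expression was not analysed here.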

Additional observations from a re-analysis of the deposited data

How the results depend on the processing

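Over all regions, 1006 were higher in DIFF with no scaling and 2032 were lower on within-list percentiles, in place of 2768 and 3558. In the 6 windows the count of regions higher in DIFF, 2 as reported, was 0 with lists of equal length, with no scaling and with the input range as a term, and 1 with a window of 10 kb. The count lower, 1 as reported, was 0 under median centring and with no scaling and 2 with a window of 50 kb. With the replicate block 3 regions were higher and 1 lower. Each library correlated best with its own number, a hint from the data and not from the design. Leaving out each library in turn gave 1592 to 2627 regions higher in the whole data set and 0 to 1 higher and 0 to 1 lower in the 6 windows. Gene windows called, 419 higher and 266 lower as reported, were 2 and 1 with open length not scaled, 78 and 56 with no filter, 758 and 520 with the replicate block, and 71 to 447 and 49 to 199 with a library left out. A window of 50 kb held 85 regions, 37 of them in all libraries, 2 PROLIF-only and 2 DIFF-only, and a cover of at least 50% left 10 regions in all libraries. PROLIF-only regions were 0 to 1 and DIFF-only regions 1 to 2 with a library left out, and 1 and 3 with the replicate block. Libraries with a promoter peak fell to 0 for *Mog* and *Mobp* with lists of equal length and for *Mobp* at 1 kb, and were 0 to 1 for *Mog* and 1 to 2 for *Mobp* with a library left out. At 1 kb they fell from 6 to 5 for *Mbp*.

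Directions turned where differences were near 0. The *Cnp* start region (log2 difference -0.02) was at 7.94 percentile points on percentiles, 0.01 with the input range as a term and -0.13 to 0.11 with a library left out. The *Mog* window (-0.01) was at 0.04 with lists of equal length, 0.08 at 10 kb, 0.04 at 50 kb, 0.07 not scaled and -0.06 to 0.05 with a library left out. The *Mobp* window (0.12) was at -0.09 with lists of equal length and -0.17 to 0.35 with a library left out, and its difference of 1.91 bp per kb was -0.961 and -0.625 to 4.01 in the same settings. The causes were not tested. The lists hold no read depth, which limits how far a missing peak can be read.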
